A study of Rattus norvegicus with 6 samples.

Results

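RNA polymerase II (Pol II) makes the messenger RNAs of animal cells, and 99 genes of the machinery that starts and drives it were followed in RNA captured with oligonucleotide pools from rat GH4C1 cells. The genes were taken by symbol from a deposited table of 32883 genes. They comprise the subunits of Pol II (Polr2) and RNA polymerase I (Polr1), the general transcription factors (Gtf2), the TBP-associated factors (Taf, without Taf15), Mediator (Med), elongation factors and coactivator subunits (Supt and Ell), and the kinase complex P-TEFb with the proteins that hold it on 7SK RNA (Cdk9, Ccnt1, Ccnt2, Hexim1 and Larp7). GH4C1 is an established wild-type rat pituitary line that makes growth hormone and prolactin. All libraries came from psoralen-treated cells of this 1 line; psoralen links paired RNA strands. The study sought RNAs directly bound to the long noncoding RNA Neat1. RNA was retrieved with oligo pool A in 3 libraries and with oligo pool B in 3 libraries. The labels give neither the sequences in the pools nor the role of either as a control, so each difference given here is one of recovery between pools. Whether libraries of a pool came from separate cultures is not stated, and p-values then measure the spread between these libraries, which may be technical.

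As background, transcription by Pol II starts when TFIID, made of the TATA-binding protein and its associated TAF proteins, sits on a promoter and the other general factors bring in the polymerase. Mediator bridges gene-specific activators to the polymerase. Shortly after the start the polymerase pauses, and P-TEFb, the Cdk9 kinase with a T-type cyclin, releases it, after which elongation factors such as Spt5 and Spt6 travel with it through chromatin. 7SK RNA, with Hexim1 and Larp7, holds part of P-TEFb inactive. Pol I, which makes the large ribosomal RNA precursor, has its own core subunits and its own promoter factor, which includes Taf1a to Taf1d.

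Total counts were between 1826390 and 3685899 per library, and CPM is the usual scaling of a gene's count to that total. The 6 genes listed as markers of this lineage (Gh1, Prl, Pou1f1, Chga, Chgb and Scg2) had at least 10 counts in every library, as did 1 of 8 markers of other pituitary cells (Lhb) and 0 of 4 markers of other cell types found in the table. The summed level of the lineage list was between 7713 and 8631 CPM with pool A and between 30512 and 37614 CPM with pool B. Chgb alone made this gap: without it the sum of the other 5 was between 4267 and 4406 CPM with pool A and between 2938 and 3169.6 CPM with pool B. On the log2 scale (pool A over pool B) Chgb was at -2.94 and Prl, Scg2 and Chga at 0.83, 0.77 and 0.63, all called, while Gh1 at 0.18 and Pou1f1 at -0.23 did not pass. The summed level of the markers of other pituitary cells was between 9.10 and 19.4 CPM with pool A and between 41.6 and 46.5 CPM with pool B, with Lhb called at -1.68 and Tshb and Fshb at 0 in every library. For the markers of other cell types the sum was between 0.395 and 5.65 CPM with pool A and between 0.548 and 4.54 CPM with pool B. Their part in the results below was not tested.

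Transcripts of this machinery were recovered with both pools, and single subunits of the same complex went in opposite directions. Those recovered more with pool A included Supt6h, Supt5h, Taf1, Med24, Polr2f and Taf1a, and those recovered more with pool B included Polr2a, Polr2b, Taf6, Taf1d and Med20. Of the 99 genes, 87 had enough counts to be tested. In edgeR's quasi-likelihood test, with p-values adjusted over all 11582 tested genes and a threshold of 0.05, 20 were recovered more with pool A and 15 more with pool B. These are 40.2% of the 87, beside 40.6% of all tested genes. The share of the machinery that differed was thus close to that of the whole table. In each direction it was 23.0% against 18.6% for pool A and 17.2% against 22.0% for pool B. The CPM ranges of the pools were apart for 44 of the 87, or 50.6%, against 49.1% of all tested genes. More than a 2-fold difference was called for 17, or 10 recovered more with pool A and 7 more with pool B, where 25.4% of all tested genes passed both limits. Taf13 and Med30 reached the count filter through pool A alone, so the call of Taf13 rests partly on that filter. Without these genes the counts were 19 and 15 of 85, and the median log2 fold change given below was 0.080 in place of 0.09. As these are bulk libraries of captured RNA, fewer cells with a transcript, less of it per cell and less of it captured cannot be told apart.

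**Figure D1:**
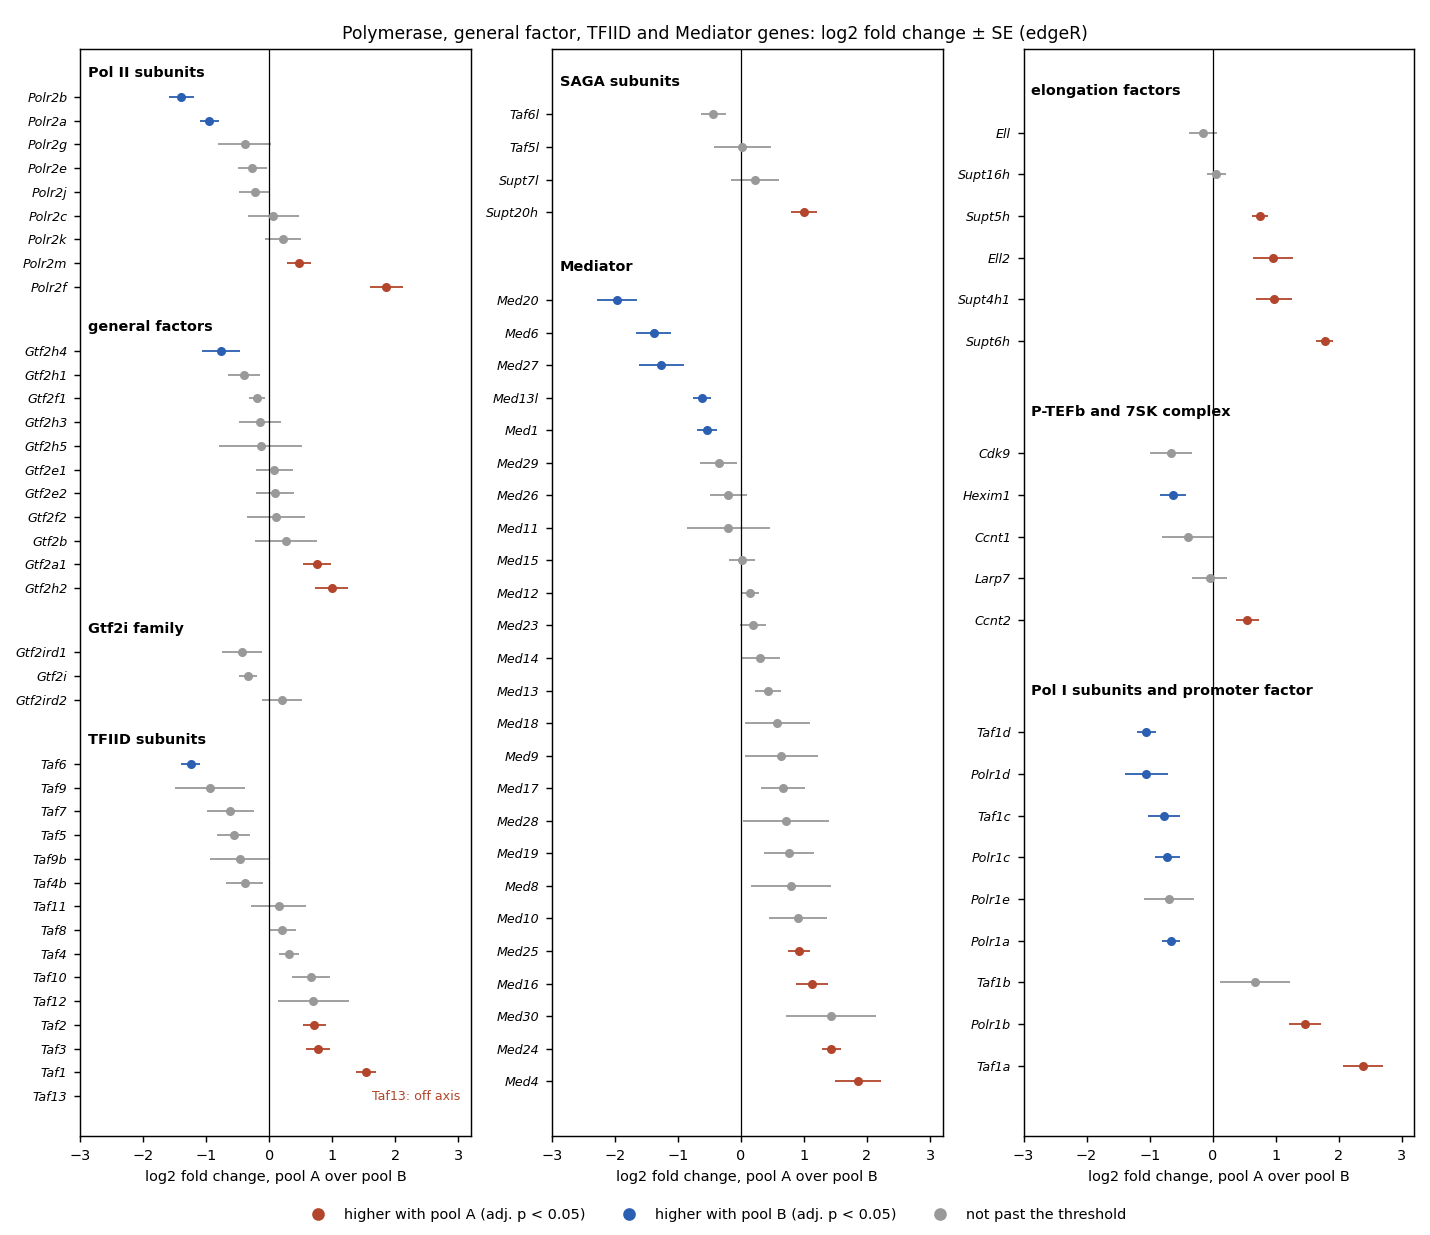
Log2 fold change, pool A over pool B, with a standard error (SE) derived from the edgeR test, for the 87 tested genes by role. Red and blue points passed an adjusted p of 0.05. Within most roles points lie on both sides of 0, from -1.96 for Med20 to 2.39 for Taf1a, and Taf13, with no count in pool B, is off the axis.

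Fold changes below are pool A over pool B after TMM scaling, so they differ slightly from ratios of CPM. The libraries kept strand, but the strand setting used for counting is not given, so values of overlapping or antisense genes are uncertain. The median log2 fold change of the 87 genes was 0.09, beside 0.02 for all tested genes, and the median size without sign was 0.63 beside 0.61. The sign of the median depended on the scaling, as it was -0.053 with total counts alone, a scaling that moved the median of all tested genes by -0.14, and 0.20 with upper-quartile factors, which moved it by 0.10. Of the 35 called genes, 32 were called under all 4 scalings run (Polr2m, Ccnt2 and Gtf2h4 were not). Beyond the genes named by rule, Polr2m, Gtf2h2, Taf13, Med1, Med13l, Med25, Med30, Supt5h, Supt16h, Polr1a and Polr1c, and further genes outside the 99, were singled out after their values were seen. Among the 29 genes with a mean of over 50 CPM, 20 were called (69.0%, against 65.8% of all genes at that level). Between 20 and 50 CPM 12 of 29 were called (41.4%, against 44.5%), and under 20 CPM 3 of 29 (10.3%, against 19.8%). The genes under 20 CPM include Taf13, which was called, and Med30, which was not, and both reached the count filter through pool A alone. The share called thus rose with the level, among these genes as among all tested genes. The median coefficient of variation between the 3 libraries of a pool was 18.7% with pool A and 17.5% with pool B.

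The Pol II subunit genes were called in both directions. Polr2a and Polr2b encode the largest and second-largest subunits, which form the catalytic centre, and both were higher with pool B. Polr2a had 179, 151 and 201 CPM with pool A and 311, 446 and 375 CPM with pool B. Every pool B library lay above every pool A library, and the log2 fold change was -0.95 ± 0.14 (SE, edgeR adjusted p = 5.04e-06). Polr2b had 26.3, 35.2 and 32.6 CPM with pool A and 93.4, 102 and 78.7 CPM with pool B. The pools again did not overlap, and Polr2b differed by -1.40 ± 0.20 (SE) on the log2 scale (edgeR adjusted p = 1.97e-06).

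Polr2f, a small subunit that Pol II shares with the other nuclear RNA polymerases, went the other way. It had 133, 73.6 and 67.8 CPM with pool A and 18.1, 31.2 and 35.9 CPM with pool B. Replicate 1 of pool A stood highest, and all pool A libraries were above those of pool B. Polr2f differed by 1.85 ± 0.26 (SE, edgeR adjusted p = 1.57e-06), and by 1.47 without pool A replicate 1. Polr2m, whose product binds Pol II and restrains it, was also called higher with pool A, but its ranges overlapped, with 65.4, 66.8 and 94.4 CPM with pool A and 58.6, 54.2 and 65.8 CPM with pool B. A value of 0.48 ± 0.19 (SE, edgeR adjusted p = 0.0435) lost the call when pool A replicate 3 or either of pool B replicates 1 and 2 was left out, with an adjusted p of up to 0.190 (without pool A replicate 3). It was also lost with total counts alone, with no filter and in limma-voom. The other 5 tested subunit genes, Polr2c, Polr2e, Polr2g, Polr2j and Polr2k, had values from -0.39 to 0.22 and did not pass. Over the 9 tested genes 2 were higher with each pool (44.4% called, beside 40.6% of all tested genes), with a median of -0.23.

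Of 11 tested genes of the general factors that assemble at the promoter, 2 were recovered more with pool A and 1 more with pool B, a share of 27.3% beside 40.6% of all tested genes, and the median was 0.08 (-0.069 with total counts alone). No call remained against a 1.5-fold change (glmTreat), with a count of 0 for each pool. Gtf2a1, a subunit of TFIIA, which steadies TBP on DNA, had 51.0, 50.6 and 48.6 CPM with pool A and 30.7, 38.3 and 30.3 CPM with pool B. The pool A libraries were close together and above all pool B libraries, a log2 fold change of 0.75 ± 0.22 (SE, edgeR adjusted p = 0.00697). The TFIIH core subunits were split. Gtf2h2 had 37.7, 50.6 and 63.4 CPM with pool A and 19.8, 25.7 and 38.2 CPM with pool B, so that the lowest pool A library lay below the highest of pool B, and differed by 0.99 ± 0.26 (SE, edgeR adjusted p = 0.00276). Gtf2h4 had 11.1, 17.0 and 16.0 CPM with pool A and 26.9, 28.5 and 27.2 CPM with pool B. Its ranges were apart, at -0.77 ± 0.30 (SE, edgeR adjusted p = 0.0448). This call did not last when a library was left out, except without pool A replicate 2, and the adjusted p reached 0.174 without pool A replicate 1. It was also lost with the replicate number as a block (0.0520), with DESeq2 size factors (0.0502), by upper-quartile scaling (0.0841), with no filter (0.0706) and in the DESeq2 test (0.0548).

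Gtf2f1, the large subunit of TFIIF and the gene of this role with the highest mean CPM, uncorrected for length, had 324, 271 and 333 CPM with pool A and 378, 367 and 429 CPM with pool B. The CPM ranges did not overlap, yet the log2 fold change of -0.20 ± 0.13 (SE) did not pass (edgeR adjusted p = 0.248). Gtf2b, Gtf2e1, Gtf2e2, Gtf2f2, Gtf2h1, Gtf2h3 and Gtf2h5 had values between -0.40 and 0.27 and did not pass either. Gtf2i encodes the regulatory factor TFII-I rather than a general factor. It had 210.0, 168 and 246 CPM with pool A and 261, 319 and 289 CPM with pool B, with the pools apart, and -0.34 ± 0.14 (SE) on the log2 scale did not pass (edgeR adjusted p = 0.0570). Gtf2i passed with total counts alone (0.0152), in limma-voom (0.0466), and without pool A replicate 3 (0.0428) or pool B replicate 1 (0.0362), while it was -0.21 without pool A replicate 2 (0.315). Its relatives Gtf2ird1 and Gtf2ird2 were at -0.43 and 0.20 and did not pass.

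**Figure D2:**
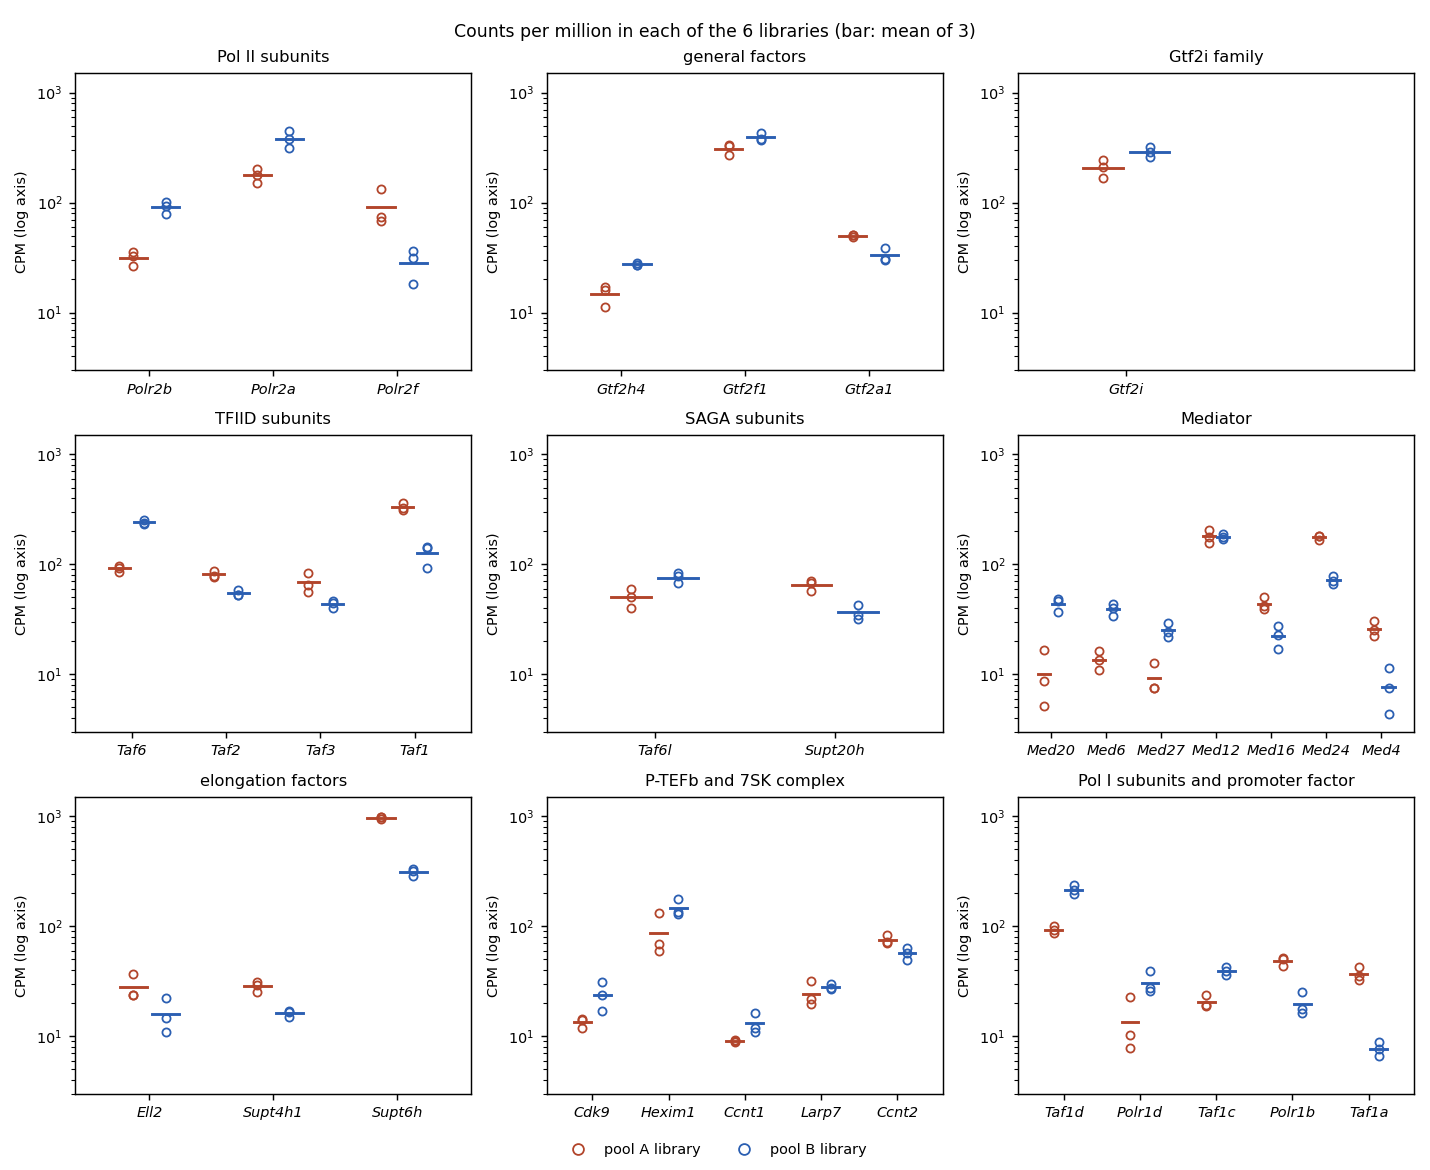
CPM on a log axis in each library for 33 genes, chosen by role, size of difference and level; circles are single libraries and bars are means of 3. Supt6h stands at a mean of 967 CPM in pool A and 313 CPM in pool B, and Taf6 shows the reverse order at 92.0 and 242.

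Of 15 tested TFIID genes, 4 were recovered more with pool A and 1 more with pool B, or 33.3% beside 40.6% of all tested genes. Against a 1.5-fold change (glmTreat) the count for pool A was 2. Taf1, the largest subunit and the scaffold that binds TBP, had 362, 315 and 323 CPM with pool A and 143, 92.5 and 142 CPM with pool B. The lowest pool A library was well above the highest of pool B. The log2 fold change was 1.54 ± 0.16 (SE, edgeR adjusted p = 6.80e-09). Taf6, a histone-fold subunit of the TFIID core, had 97.1, 92.9 and 86.0 CPM with pool A and 235, 237 and 255 CPM with pool B. It showed the opposite order without overlap, at -1.25 ± 0.15 (SE, edgeR adjusted p = 7.50e-08).

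Taf2 and Taf3 were moderately higher with pool A. Taf2, which contacts promoter DNA near the start site, had 79.2, 86.6 and 77.5 CPM with pool A and 53.2, 58.6 and 52.6 CPM with pool B and differed by 0.72 ± 0.18 (SE, edgeR adjusted p = 0.00216). Taf3, whose PHD finger reads methylated histone H3, had 65.1, 56.6 and 83.8 CPM with pool A and 44.6, 40.5 and 46.5 CPM with pool B and differed by 0.78 ± 0.20 (SE, edgeR adjusted p = 0.00221). In both genes the pools did not overlap. Taf13, a small histone-fold subunit, had 17, 18 and 12 counts with pool A and 0 in every library with pool B. Against a floor of 3 counts in each pool B library its CPM with pool A was at least 4.08-fold higher. No p is given for it, because it passed the count filter only through pool A, and without it 3 of 14 tested TFIID genes were called higher with pool A. It was not tested without pool A replicate 1. The other 10 tested TFIID genes, among them Taf4, Taf5, Taf7, Taf9 and Taf10, had values from -0.93 to 0.70 and did not pass. With pool B replicate 2 left out, and also with total counts alone, 2 were called higher with pool B in place of 1. The median over the 15 was 0.21, and 0.18 without Taf13.

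SAGA, a coactivator that shares histone-fold TAFs with TFIID, was represented by 4 genes with a median of 0.12 (-0.023 with total counts alone). Supt20h, a structural subunit, had 70.8, 68.4 and 57.1 CPM with pool A and 32.0, 42.7 and 34.8 CPM with pool B. All pool A libraries were above those of pool B, and Supt20h was the 1 gene of 4 that passed (25.0%, beside 40.6% of all tested genes), at 1.003 ± 0.21 (SE, edgeR adjusted p = 0.000338). Taf6l, the SAGA counterpart of Taf6, had 59.7, 50.6 and 40.5 CPM with pool A and 67.1, 77.7 and 82.9 CPM with pool B. Its CPM ranges were apart, but -0.44 ± 0.20 (SE) did not pass (edgeR adjusted p = 0.0833). Taf6l passed with total counts alone (0.0196) and without pool A replicate 1 (0.0430), while it was -0.25 without pool A replicate 3 (0.380). Supt7l and Taf5l were at 0.22 and 0.02.

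Mediator supplied the most genes, 30, of which 25 were tested. Of these 4 were recovered more with pool A and 5 more with pool B, a share of 36.0% beside 40.6% of all tested genes, and the median was 0.43, or 0.37 without Med30, which reached the count filter through pool A alone. Against a 1.5-fold change (glmTreat) the count for pool B was 3. Mediator has a head, a middle and a tail, and a kinase module that docks on it. The called head genes, Med6 and Med20, were both higher with pool B, while Med4 and Med1 of the middle were called in opposite directions. Med6 had 10.9, 13.4 and 16.3 CPM with pool A and 33.7, 43.3 and 40.1 CPM with pool B. All pool B libraries exceeded all pool A libraries, at -1.38 ± 0.28 (SE, edgeR adjusted p = 0.000208). Med20 had 8.68, 5.14 and 16.6 CPM with pool A and 37.2, 46.0 and 48.4 CPM with pool B and was the gene with the largest difference in favour of pool B among the 87. It stood at -1.96 ± 0.32 (SE) without overlap (edgeR adjusted p = 1.27e-05). Med27, which joins head and tail, had 12.8, 7.51 and 7.53 CPM with pool A and 24.2, 29.0 and 21.9 CPM with pool B, also apart, at -1.26 ± 0.35 (SE, edgeR adjusted p = 0.00505).

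Med4, a middle subunit, had 30.4, 22.1 and 25.4 CPM with pool A and 7.498, 4.38 and 11.3 CPM with pool B. It was higher in every pool A library, at 1.85 ± 0.37 (SE, edgeR adjusted p = 0.000161). The tail genes Med16 and Med24 shared this direction. Med24 had 182, 165 and 181 CPM with pool A and 70.6, 66.8 and 77.9 CPM with pool B, 2 tight groups, at 1.44 ± 0.15 (SE, edgeR adjusted p = 1.33e-08). Med16 had 51.0, 39.2 and 41.4 CPM with pool A and 22.8, 27.4 and 17.0 CPM with pool B, apart, at 1.13 ± 0.25 (SE, edgeR adjusted p = 0.000631). Med25, a subunit that activators bind, was the fourth gene higher with pool A, at 0.92 ± 0.18 (SE). Med1, through which nuclear receptors contact Mediator, and Med13l of the kinase module were slightly higher with pool B, at -0.54 ± 0.15 (SE) and -0.62 ± 0.14 (SE), with edgeR adjusted p of 0.00564 and 0.00100.

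Med12, which activates the kinase of that module, had the highest mean CPM of the Mediator genes, uncorrected for length. It had 155, 177 and 207 CPM with pool A and 187, 179 and 169.9 CPM with pool B. The range of pool B lay inside that of pool A, and the difference of 0.15 ± 0.14 (SE) did not pass (edgeR adjusted p = 0.433). Another 14 tested Mediator genes did not pass, with values between -0.35 and 0.90. Med30, on a mean of 9 counts per library, did not pass either, and its value and p are not given because of that filter.

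Among the elongation factor genes with Supt and Ell symbols, those that passed were all higher with pool A. Of 6 tested, 4 were recovered more with pool A and 0 more with pool B, beside 18.6% and 22.0% of all tested genes, with a median of 0.85 that stayed between 0.71 and 0.96 under the 4 scalings. The count of 0 was the same in edgeR at an unadjusted p under 0.05, in DESeq2 and in limma-voom, while the count higher with pool A was 1 against a 1.5-fold change (glmTreat). Supt6h, the histone chaperone Spt6 that binds elongating Pol II, had 976, 947 and 979 CPM with pool A and 288, 321 and 329.9 CPM with pool B. Libraries within a pool differed by little beside the gap between pools, a log2 fold change of 1.77 ± 0.13 (SE, edgeR adjusted p = 1.03e-11) and the smallest adjusted p among the 87. Supt5h and Supt4h1 encode the partners Spt5 and Spt4, which form the factor DSIF. Supt5h had 642, 574 and 653 CPM with pool A and 454, 379 and 397 CPM with pool B. It was higher in each pool A library, at 0.75 ± 0.13 (SE, edgeR adjusted p = 2.93e-05). Supt4h1 had 29.3, 31.2 and 25.4 CPM with pool A and 15.0, 17.0 and 16.6 CPM with pool B, also without overlap, at 0.97 ± 0.29 (SE, edgeR adjusted p = 0.00780).

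Ell2, an elongation factor of the super elongation complex, had 36.9, 23.7 and 23.8 CPM with pool A and 22.2, 14.8 and 10.97 CPM with pool B. The lowest pool A library was just above the highest of pool B. Its 0.96 ± 0.32 (SE, edgeR adjusted p = 0.0165) was lost without pool A replicate 1 (edgeR adjusted p = 0.145) or pool B replicate 3 (0.0934). Supt16h, a subunit of the histone chaperone FACT, had 177, 192 and 189 CPM with pool A and 162, 195 and 236 CPM with pool B. Those ranges overlapped, at 0.054 ± 0.15 (SE, edgeR adjusted p = 0.813). Ell was at -0.16 ± 0.22 (SE) and did not pass.

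Of the 5 genes of P-TEFb and its 7SK partners, 1 was called higher with each pool, a share close to the 40.6% of all tested genes. Cdk9, the kinase, had 14.1, 11.9 and 14.4 CPM with pool A and 17.0, 31.2 and 23.5 CPM with pool B. Pool B libraries were all higher, but -0.66 ± 0.33 (SE) did not pass (edgeR adjusted p = 0.114, 0.0496 without pool B replicate 1, 0.367 with replicate 2 of that pool left out). Of the T-type cyclins, Ccnt1 had 9.22, 9.10 and 8.78 CPM with pool A and 11.9, 10.95 and 16.3 CPM with pool B, apart but not past the threshold at -0.39 ± 0.42 (SE, edgeR adjusted p = 0.493). Ccnt2 had 70.8, 71.2 and 82.8 CPM with pool A and 57.3, 63.5 and 49.6 CPM with pool B, apart in the other direction, and passed at 0.55 ± 0.18 (SE, edgeR adjusted p = 0.0172). Ccnt2 lost the call with total counts alone (0.0985) and without pool B replicate 3 (0.0913).

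Hexim1, the protein that inhibits P-TEFb when bound to 7SK, had 60.0, 69.2 and 132 CPM with pool A and 128, 135 and 177 CPM with pool B. Replicate 3 of pool A lay within the range of pool B, and the others were lower. Hexim1 was called higher with pool B at -0.63 ± 0.20 (SE, edgeR adjusted p = 0.0137). The value was -0.98 without pool A replicate 3. The call was lost without pool A replicate 1 (0.126), pool A replicate 2 (0.0958) or pool B replicate 3 (0.118). Larp7, which protects 7SK at its 3′ end, had 19.5, 32.0 and 21.6 CPM with pool A and 27.3, 26.8 and 29.5 CPM with pool B. It did not pass, at -0.051 ± 0.28 (SE, edgeR adjusted p = 0.909), and its sign turned by upper-quartile scaling and without pool A replicate 1 or pool A replicate 3.

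Of 9 tested Pol I genes, 7 were called (77.8%), beside 40.6% of all tested genes. The 5 higher with pool B were 55.6% and the 2 higher with pool A 22.2%, beside 22.0% and 18.6% of all tested genes. The median of the 9 was -0.69 and stayed between -0.84 and -0.59 under the 4 scalings. Polr1a, the largest subunit, was higher with pool B at -0.66 ± 0.15 (SE, edgeR adjusted p = 0.000603), and so was Polr1c, an assembly subunit shared with Pol III, at -0.72 ± 0.20 (SE, edgeR adjusted p = 0.00403). Polr1d, the partner of Polr1c, had 7.87, 10.3 and 22.6 CPM with pool A and 27.3, 25.7 and 39.0 CPM with pool B. Replicate 3 of pool A was high among its pool but under all pool B libraries, and Polr1d was at -1.05 ± 0.34 (SE, edgeR adjusted p = 0.0144). The value was -1.56 without pool A replicate 3. Its call was lost without pool A replicate 1 (0.0961), pool A replicate 2 (0.0714) or pool B replicate 3 (0.106). In contrast Polr1b, the second-largest subunit, had 50.5, 51.0 and 43.6 CPM with pool A and 17.7, 25.2 and 16.3 CPM with pool B. Its pools were apart in favour of pool A, at 1.46 ± 0.25 (SE, edgeR adjusted p = 2.85e-05). Polr1a and Polr1b, the large subunits of Pol I, were called in opposite directions, while their Pol II counterparts Polr2a and Polr2b were called in the same one.

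The genes of the Pol I promoter factor were also divided. Taf1a had 35.5, 42.3 and 32.3 CPM with pool A and 8.86, 6.57 and 7.57 CPM with pool B. The pools were far apart, at 2.39 ± 0.31 (SE, edgeR adjusted p = 4.61e-07). Taf1d had 92.8, 101 and 86.0 CPM with pool A and 212, 197 and 235 CPM with pool B, the reverse order without overlap, at -1.05 ± 0.15 (SE, edgeR adjusted p = 2.43e-06). Taf1c had 23.6, 19.0 and 19.1 CPM with pool A and 38.9, 42.7 and 36.3 CPM with pool B, apart in the same direction as Taf1d, at -0.78 ± 0.25 (SE, edgeR adjusted p = 0.0153). That call was lost without pool A replicate 2 (0.0559) or pool A replicate 3 (0.0677). Without pool A replicate 2 the count of Pol I genes higher with pool B was 3 in place of 5. Taf1b, on a mean of 20.8 counts per library, was at 0.67 ± 0.56 (SE), and the subunit gene Polr1e was at -0.69 ± 0.40 (SE). Neither passed. When tested against a 1.5-fold change (glmTreat in edgeR), the count higher with pool B was 1, and it was 3 at an adjusted p threshold of 0.01.

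The 12 genes not tested had few or no counts. Polr2h, a shared polymerase subunit, and Gtf2a1l, a germ-cell relative of the TFIIA gene, were listed at 0 in all 6 libraries. Med12l, Taf7l and Taf7l2, relatives of Med12 and Taf7, had between 1 and 3 counts over all libraries together. A count of 0 allows up to 3 counts, or between 0.814 and 1.64 CPM by library, and covers counting error only. The stalk subunit gene Polr2d and Polr2i had 27 and 29 counts in all, Ell3 had 51, and the Mediator genes Med22, Med31, Med7 and Med21 had between 25 and 68. Of these, Polr2i had 2, 0 and 3 counts with pool A and 8, 4 and 12 with pool B. Med22 had 1, 0 and 2 with pool A and 9, 4 and 9 with pool B. In both the pool B libraries were higher, on counts too small for the test. Med7, with 7, 7 and 1 counts with pool A and 20, 6 and 14 with pool B, was also higher with pool B by CPM range. The CPM ranges of Polr2d, Ell3, Med31 and Med21 overlapped.

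Other genes of the pathway, listed by function, gave a context for these. Of 49 tested, 16 were recovered more with pool A and 8 more with pool B, 49.0% in all beside 40.6% of all tested genes, and the median log2 fold change was 0.25. The PAF complex, which travels with Pol II, was divided again. Paf1, Leo1 and Ctr9 were higher with pool A, at 1.35 ± 0.14 (SE), 1.57 ± 0.17 (SE) and 1.17 ± 0.14 (SE), and Cdc73 and Wdr61 were higher with pool B. Wdr61 had 8.41, 6.33 and 1.25 CPM with pool A and 34.1, 23.5 and 43.9 CPM with pool B. Pool B libraries were all higher, at -2.50 ± 0.43 (SE, edgeR adjusted p = 3.19e-05), the largest difference in that direction on the list. The CTD is the repeat tail of Polr2a, and the genes of its kinases and its phosphatase included the smallest adjusted p on the list. Ctdp1, a CTD phosphatase, had 117, 98.1 and 136 CPM with pool A and 482, 559.6 and 510.0 CPM with pool B and was at -1.997 ± 0.14 (SE, edgeR adjusted p = 2.97e-12). Cdk12, a CTD kinase, had 161, 177 and 214 CPM with pool A and 677, 818 and 807 CPM with pool B and was at -1.92 ± 0.14 (SE, edgeR adjusted p = 5.73e-12). In both genes the pools were far apart. Cdk13, another CTD kinase, was called the other way, at 1.05 ± 0.18 (SE, edgeR adjusted p = 2.78e-05), and the phosphatase gene Ssu72, at 0.62 ± 0.39 (SE), did not pass.

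Among the Pol I factors, Rrn3 and Ubtf were higher with pool A (2 of 5 tested). Of the 9 Pol I genes above, 5 were higher with pool B and 2 with pool A, beside 22.0% and 18.6% of all tested genes. The count of 5 was 1 against a 1.5-fold change (glmTreat) and 3 at an adjusted p threshold of 0.01. Rrn3, which brings Pol I to its promoter, had 50.5, 66.4 and 52.7 CPM with pool A and 6.48, 21.4 and 7.57 CPM with pool B. The pools did not overlap, at 2.49 ± 0.32 (SE, edgeR adjusted p = 4.16e-07). Ubtf, the upstream binding factor of ribosomal DNA, had 969, 779 and 938 CPM with pool A and 328, 291 and 302 CPM with pool B and was at 1.69 ± 0.13 (SE, edgeR adjusted p = 3.81e-11). The Pol I subunit genes carried under the older symbols Znrd1, Twistnb and Cd3eap did not pass, at -0.22, 0.11 and 0.71. Nelfb, of the pausing factor NELF, had 94.7, 96.1 and 73.4 CPM with pool A and 20.8, 39.4 and 32.5 CPM with pool B and was at 1.68 ± 0.23 (SE, edgeR adjusted p = 6.71e-07). Nelfe was also higher with pool A, Nelfa was higher with pool B at -0.71 ± 0.25 (SE), and Nelfcd did not pass. Tbp itself had 22.8, 12.3 and 30.1 CPM with pool A and 16.4, 29.6 and 15.5 CPM with pool B. Its pools overlapped, at 0.25 ± 0.34 (SE, edgeR adjusted p = 0.592), while its relative Tbpl1 was higher with pool B at -1.19 ± 0.22 (SE). The partners of Spt6 and Supt16h on the list, Iws1 and Ssrp1, were both higher with pool A, at 0.68 ± 0.16 (SE) and 0.40 ± 0.14 (SE).

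**Figure D3:**
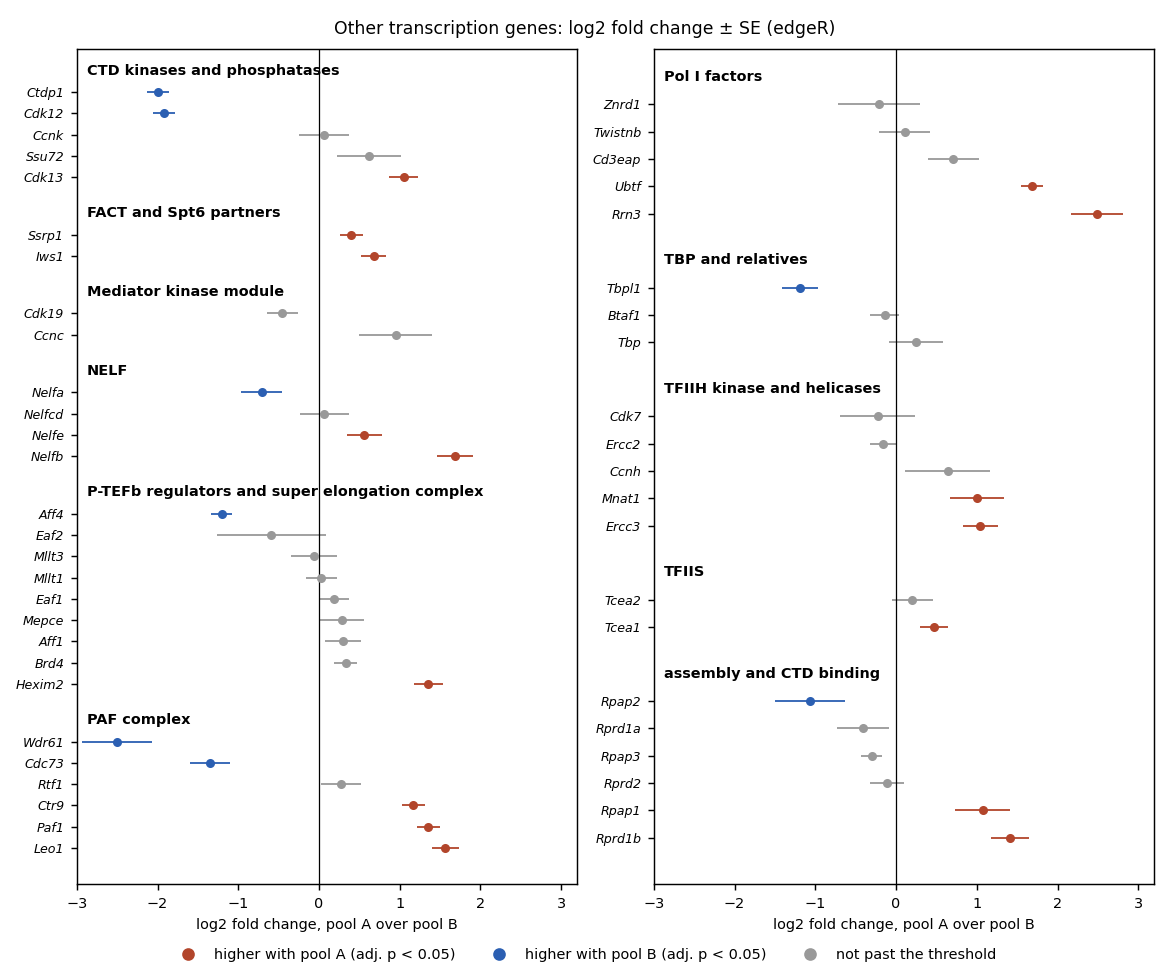
Log2 fold change, pool A over pool B, with an SE derived from the edgeR test, for 49 further transcription genes by complex. Red and blue points passed an adjusted p of 0.05. Genes of the PAF complex lie on both sides of 0, with Wdr61 at -2.50 and Leo1 at 1.57.

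Whether related genes were recovered alike was asked with ratios of counts within a library, which no scaling between libraries can alter. The 13 pairs of relatives were chosen after single values had been seen. A difference is that of the mean log2 ratio with pool A minus that with pool B, with 0.5 added to each count. A ratio is not corrected for gene length, which cancels in the difference between pools. Ratios were apart between the pools in 8 of the 13 pairs, a count that is only a description, since the pairs were picked with values known and 49.1% of single tested genes had CPM ranges apart. With 3 libraries against 3 the two-sided exact permutation test cannot give a p under 0.1, and these 8 had that value (0.163 adjusted over the 13 pairs), so that no pair passed.

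Cdk12 and Cdk13, CTD kinases of 1 family, gave the largest difference. There were 1.78, 1.65 and 2.00 counts of Cdk12 per count of Cdk13 with pool A and 14.5, 14.9 and 13.1 with pool B, a difference of -2.97. Hexim1 and Hexim2 stand in adjacent rows of the table. Their ratios were 0.378, 0.573 and 1.06 with pool A and 1.86, 2.70 and 3.198 with pool B, a difference of -2.04. Hexim2 itself had 159, 121 and 124 CPM with pool A and 69.2, 49.8 and 55.2 CPM with pool B and was higher with pool A at 1.35 ± 0.18 (SE), opposite to Hexim1. Rprd1a against Rprd1b (-1.97), Ell against Ell2 (-1.13) and Ccnt1 against Ccnt2 (-0.91) had lower ratios with pool A. Aff1 against Aff4 (1.47), Med13 against Med13l (1.06) and Taf4 against Taf4b (0.70) had higher ones. Ratios overlapped for Taf9 and Taf9b, Gtf2i and Gtf2ird1, Tcea1 and Tcea2, Mllt1 and Mllt3, and Eaf1 and Eaf2. Close relatives can share reads, and how such reads were counted is not stated.

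**Figure D4:**
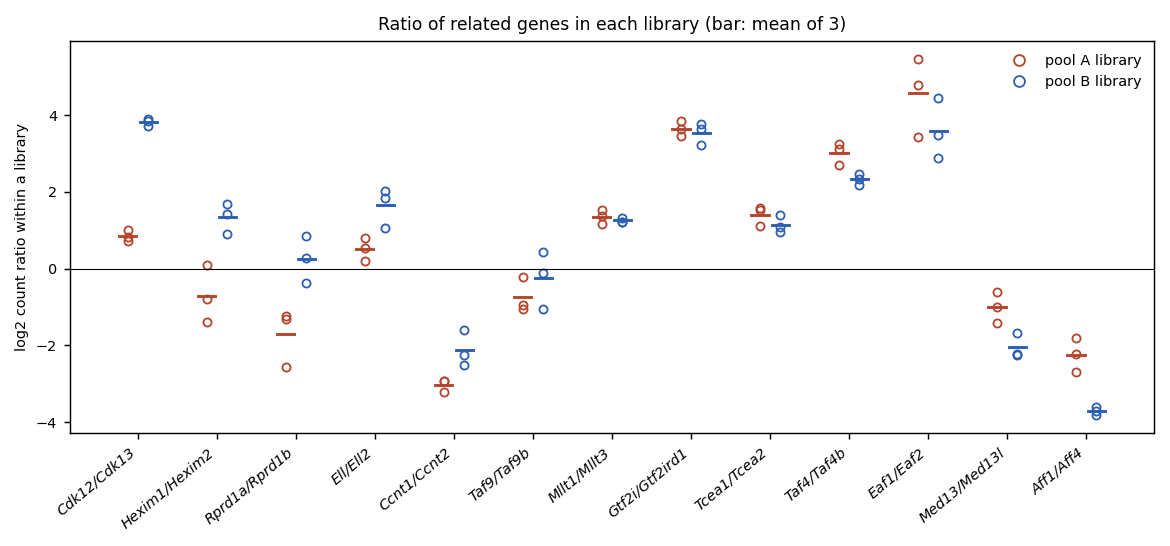
Log2 ratio of the counts of related genes within each library for 13 pairs, in order of the difference between pools; circles are single libraries and bars are means of 3. The ratios of Cdk12 to Cdk13 form separate groups 2.97 apart on the log2 scale, while those of Mllt1 to Mllt3 overlap.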

How the data were processed

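RNA pulled down from psoralen-treated GH4C1 cells was sequenced in 6 libraries. The authors deposited raw counts per gene, with gene names, and a mean signal per pool, which matched the mean of its 3 counts in each row and went unused. STAR and featureCounts are named per the submitters' processing notes, while the genome build, annotation and strand setting are not given in the sources used here. Members and lists were chosen with earlier results of these data known, and the 13 pairs of relatives after single values had been seen.

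Counts were tested in R 4.3.3 with edgeR 4.0.16 (TMM, filterByExpr by pool, quasi-likelihood test, two-sided, Benjamini-Hochberg over 11582 genes, threshold 0.05). The test gives no SE, so each SE is the size of the log2 fold change divided by the square root of the F statistic. Genes named by rule were, in each role, up to 3 per direction with the largest called fold change, CPM ranges apart and a mean of at least 10 counts, the gene with the highest mean CPM, and all of P-TEFb and its 7SK partners. Alternatives were other scalings, filters and thresholds, a replicate block, DESeq2 1.42.0, limma-voom (limma 3.58.1) and each library left out. In simulated counts the test recovered 42% of 2-fold and 88% of 4-fold changes over 11264 genes, and 5.80% of its calls were unchanged genes. Few genes were changed in the simulation, while 40.6% of tested genes were called in the data, and its dispersions came from these libraries. The simulated shares therefore need not hold for the comparison itself. Same-numbered libraries of the pools are not stated to share a culture, so numbers were not taken as pairs in the main test. Their deviations had correlations of 0.0409, -0.0195 and 0.0200, which do not decide whether they do. No sequence is shown, as none used here belongs to the captured RNAs or the pools.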

Additional observations from a re-analysis of the deposited data

How the results depend on the processing

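The median log2 fold change of the 87 tested genes was 0.09 with TMM, -0.053 when only total counts were used and 0.20 by upper-quartile scaling. Against a 1.5-fold change (glmTreat), 11 of them were recovered more with pool A and 7 more with pool B (20.7%, beside 23.1% of all tested genes), and 10 of the further transcription genes were higher with pool A. The share of called members that were higher with pool A was 57.1% with TMM, 50% with total counts and 62.2% by upper-quartile scaling. Leaving out each library in turn gave between 18 and 20 members higher with pool A, between 12 and 16 higher with pool B, and a median between 0.034 and 0.14. For the further transcription genes it gave between 12 and 15 higher with pool A and between 6 and 9 higher with pool B. With the replicate number as a block, 20 members were recovered more with pool A and 14 more with pool B, the median was 0.11, and the further genes gave 15 and 8. The block ended the call of Gtf2h4, and whether same-numbered libraries share a culture is not stated. Other settings left these counts within 1.5 times. Of the refits of single named genes, 574 kept their direction and side of the threshold, 38 fell short of it, 7 newly passed it and 3 changed sign. All 3 were of Larp7, which was not called at -0.051 and came to 0.053 by upper-quartile scaling, 0.091 without pool A replicate 1 and 0.085 without pool A replicate 3, in a range of -0.30 to 0.091 over the libraries left out. Weakly recovered genes limit the account, since 3 of 29 members under 20 CPM were called, with Taf13, which passed the count filter through pool A alone, among them.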

Other observations

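The table's neighbouring rows were set beside the 35 called genes. Of their 36 tested neighbours, 10 were called in the same direction (27.8%) and 10 in the opposite direction (27.8%). For all called genes, 26.0% of 4994 tested neighbours were called in the same direction and 17.7% in the opposite one. Polr2f, at 1.85 on the log2 scale, follows RGD1359634 at -2.05. Med16, at 1.13, precedes Wdr18 at -2.81, and Gtf2h2, at 0.99, precedes Ocln at -2.45. Med27, at -1.26, precedes Rapgef1 at 1.602. In the same direction, Supt6h, at 1.77, follows Proca1 at 1.61, and Med1, at -0.54, precedes Cdk12 at -1.92. These examples were chosen after their values were seen, and whether neighbouring genes overlap was not tested.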
